A study of Mus musculus with 20 samples.

Results

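The genes described here encode the proteasome: the 43 genes, of 13798 in the expression matrix, whose symbols begin with Psma, Psmb, Psmc, Psmd or Psme followed by a digit. By known role they comprised 7 subunits of the α ring, 4 structural and 3 catalytic subunits of the constitutive β ring, 5 genes of the immunoproteasome and its PA28αβ cap, 6 ATPases and 11 non-ATPase subunits of the 19S regulatory particle, 3 chaperones of its assembly and 2 other activators (Psme3 and Psme4). The remaining 2 genes were kept out of these groups. Psme2b is a near copy of Psme2, so its reads may belong to either gene, and Psmc3ip is a cofactor of meiotic recombination that is not a subunit. Psma8 and Psmb11, the tissue-specific subunits of testis and thymus, were not analysed here. All 43 genes passed the filter on low values over all cells (found in at least 1% of cells in 5 mice).

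Proteasomes degrade ubiquitin-tagged proteins in a barrel of α and β rings, capped by the 19S particle that recognizes, unfolds and feeds in the substrate. In lymphocytes and in cells exposed to interferon, the catalytic subunits Psmb6, Psmb7 and Psmb5 (β1, β2 and β5) are exchanged for Psmb9, Psmb10 and Psmb8 (β1i, β2i and β5i), which changes the peptides produced for MHC class I. Psme1 and Psme2 form PA28αβ, an interferon-inducible cap that opens the barrel independently of ubiquitin.

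The data are single-cell RNA-seq of splenic CD4+CXCR5+PD1+ follicular T cells from 10 C57BL/6 bone marrow chimeras, with T cell receptor sequencing of the same mice (20 samples in all). The 5 WT mice were irradiated, given congenic wild type marrow and immunized with NP-OVA in alum at week 6, and the 5 564Igi mice received the wild type marrow mixed with marrow from 564Igi mice, whose B cells carry knocked-in heavy and light chain genes of a receptor that binds self ribonuclear complexes. All were sacrificed at week 10 by the labels. The mice of the WT group comprised 2 labelled female and 3 labelled male, and the 564Igi mice 3 and 2. By the methods, hosts and marrow donors were young adults, and immunized chimeras of this kind also received a later booster of NP-OVA, which would fall in the week of sacrifice and which the labels do not mention. Marrow genotype and immunization differ together between the groups, and their effects cannot be told apart. The comparison is between T cells of mice that hold self-reactive B cells and T cells of mice immunized with a foreign antigen. The sort described in the methods also gated on congenic markers, and the marrow from which the T cells measured came was not tested. The knocked-in genes encode a B cell receptor, and whether the knock-in acts in the T cells measured was not tested.

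The tables hold 28192 cells, 14965 from WT and 13227 from 564Igi mice, with 1121 to 4030 cells and 3424280 to 15241983 UMIs per mouse. Median UMIs per cell were lowest in 564Igi mouse 24 (2728) and WT mouse 12 (2937.5) and highest in 564Igi mouse 17 (4375.5). The authors' heat shock score was highest in mice 34 and 36 (0.115 and 0.0809), 1 of each group, and 491 cell barcodes occurred in more than 1 library. The T cell genes Cd3e, Cd4, Cxcr5, Pdcd1, Icos and Bcl6 were found in every mouse. Their mean corrected counts summed to 11.8 to 14.9 in WT and 14.2 to 15.9 in 564Igi mice, and their part in the results below was not tested. The 6 B cell markers in the matrix summed to 0.0819 to 0.117 in WT and 0.0740 to 0.135 in 564Igi mice, the 5 myeloid markers to 0.00712 to 0.183 and 0 to 0.135, and the 4 erythroid markers to at most 0.0226. The authors' clusters were used as deposited, and 8 of their 9 defining markers were highest in the cluster they name, such as Foxp3 in TFR cells (log2 level 0.87 ± 0.08, SD, n = 10 mice) and Ifit1 in interferon stimulated TFH cells (2.15 ± 0.23, n = 8). The exception was Tnfsf8, which was at 1.14 in activated TFH and at 1.48 in Sostdc1 TFH cells.

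Stretches that precede the RefSeq starts of 5 of these genes are given first, from GRCm38.p6 and each 5′ to 3′ on the gene's strand. Except for Psmb8, they lie outside exons annotated by GENCODE vM21. Windows were found for 37 of the 43 genes (none for Psmb1, Psmb2, Psmb7, Psmc3, Psmd3 and Psmd7). Capitals mark matches to 3 motifs searched on both strands in the 250 bases before the start: the interferon-γ activated site GAS (TTCNNNGAA), the core of the interferon-stimulated response element (GAAANNGAA) and the core of the antioxidant response element bound by Nrf factors (TGACNNNGC). The window of Psmb8 lay inside an annotated exon, so its match is shown with 10 bases on each side (chr17:34198088-34198116, plus strand, 107 to 79 bases before the RefSeq start). Psme1 is at chr14:55578249-55578359 (plus), Psme2 at chr14:55591114-55591351 (minus), Psmb5 at chr14:54618023-54618245 (minus) and Psmb6 at chr11:70525107-70525356 (plus). By GENCODE, Psmb8 begins earlier, at 34197721, and so does Psme1, at 55578123. The printed stretches of both therefore lie inside the annotated gene and not upstream of it.
Psmb8: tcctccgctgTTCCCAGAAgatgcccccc
Psme1: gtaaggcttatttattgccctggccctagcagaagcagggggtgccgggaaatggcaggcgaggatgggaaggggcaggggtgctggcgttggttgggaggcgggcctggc
Psme2: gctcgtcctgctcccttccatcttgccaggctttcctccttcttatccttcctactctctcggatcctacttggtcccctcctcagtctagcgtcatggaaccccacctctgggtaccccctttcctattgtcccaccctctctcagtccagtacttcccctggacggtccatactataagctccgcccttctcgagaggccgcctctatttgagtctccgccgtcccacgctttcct
Psmb5: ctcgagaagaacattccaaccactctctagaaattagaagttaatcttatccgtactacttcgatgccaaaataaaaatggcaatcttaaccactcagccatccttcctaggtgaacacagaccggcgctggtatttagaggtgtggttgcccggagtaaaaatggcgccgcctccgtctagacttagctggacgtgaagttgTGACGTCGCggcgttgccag
Psmb6: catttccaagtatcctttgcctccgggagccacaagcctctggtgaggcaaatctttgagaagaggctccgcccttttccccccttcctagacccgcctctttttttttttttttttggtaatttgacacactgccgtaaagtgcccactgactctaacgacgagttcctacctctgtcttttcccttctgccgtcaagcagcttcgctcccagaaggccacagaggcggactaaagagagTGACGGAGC

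Of the 37 genes with a window, 1 held the GAS letters (Psmb8, at a site inside the gene as annotated by GENCODE), against 7.02% of 32851 windows. The interferon response core was present in 3 (Psmb3, Psmd4 and Psmd9), against 7.13% of windows, and in none of the windows of the 5 immunoproteasome genes. The windows of Psmb8 and Psme1 lie inside the genes as annotated by GENCODE. That of Psmb9 held no run of at least 60 bases outside annotated exons. A missing match in these windows therefore says nothing of the bases upstream of the annotated genes. The antioxidant core was present in 5 (Psmb5, Psmb6, Psmc6, Psmd12 and Psmd9), against 10.2% of windows, and 2 of these are the constitutive catalytic subunits that Psmb8 and Psmb9 replace. A match is a run of letters and says nothing of binding.

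By counts of unique molecules, Psmb8, Psme2 and Psme1 were the highest of the 43 genes, while Psmb9 and Psmb10 lay among the ring subunits. The mean corrected counts per cell over the 10 mice were 3.31 for Psmb8, 2.57 for Psme2, 2.44 for Psme1, 1.16 for Psmb9 and 0.732 for Psmb10. Of the subunits they replace, Psmb5 was at 0.891, Psmb6 at 0.800 and Psmb7 at 0.258. The α ring ranged from 0.476 (Psma5) to 1.25 (Psma3), the structural β subunits from 0.601 (Psmb4) to 1.36 (Psmb3), the ATPases from 0.321 (Psmc6) to 0.616 (Psmc3) and the non-ATPases from 0.267 (Psmd1) to 0.678 (Psmd4). The lowest was Psmc3ip at 0.0247. These are counts of molecules from 5′ libraries, not adjusted for gene length or capture, so levels of different genes are given as a description and differences are read only between mice and clusters.

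Mice with and without the 564Igi marrow were compared to ask whether follicular T cells differ in proteasome gene expression where self-reactive B cells are present. The means of all 5 immunoproteasome genes were higher in 564Igi mice, by 0.083 to 0.17 on the log2 scale, and the constitutive subunits differed by less, with a median of 0.013 over 31 genes. No gene of the 43 was called at an adjusted p below 0.01 and an absolute log2 difference above 0.2 (limma), nor at any cell grouping described below, where 0.01% of 9959 genes tested over all cells were called. The values below are levels, the mean over a mouse's cells of log2(corrected count + 1), in which a fold change of a low gene is understated.

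Psme2, the β chain of PA28, was at 1.41, 1.43, 1.55, 1.49 and 1.52 in WT mice 11, 12, 14, 23 and 36 and at 1.63, 1.67, 1.61, 1.68 and 1.65 in 564Igi mice 13, 17, 21, 24 and 34. All 5 564Igi mice lay above all 5 WT mice. The difference was 0.17 (SE 0.070, limma unadjusted p = 0.0290, adjusted p = 0.9997), and the ratio of mean counts was 1.17. Its partner Psme1 was at 1.47, 1.50, 1.51, 1.48 and 1.51 in the WT mice and at 1.67, 1.62, 1.63, 1.64 and 1.60 in the 564Igi mice. The groups again did not overlap, and the difference was 0.14 (SE 0.069, limma unadjusted p = 0.0524, adjusted p = 0.9997), with an SD between mice of 0.016 in WT and 0.026 in 564Igi mice. The SE of limma is wider than this spread because its trend option moves each gene's variance towards that of genes at a like level. Without that option the adjusted p of Psme1 was 0.0139 at the same difference (limma), still above the limit.

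Psmb8, the β5i subunit with chymotrypsin-like activity, was at 1.90, 1.80, 1.79, 1.91 and 1.90 in the WT mice and at 2.03, 1.90, 2.04, 1.96 and 2.06 in the 564Igi mice. Mouse 17 of the 564Igi group lay within the WT range and the other 4 above it, with a difference of 0.14 (SE 0.083, limma unadjusted p = 0.109, adjusted p = 0.9997). Psmb9, the β1i subunit, was at 0.87, 0.75, 0.85, 0.89 and 0.86 in the WT mice and at 1.01, 0.91, 0.97, 0.93 and 0.94 in the 564Igi mice, with no overlap. The difference was 0.11 (SE 0.044, limma unadjusted p = 0.0249, adjusted p = 0.9997).

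Psmb10, the β2i subunit, was at 0.62, 0.47, 0.55, 0.62 and 0.61 in the WT mice and at 0.69, 0.65, 0.69, 0.60 and 0.65 in the 564Igi mice. WT mouse 12 was the lowest and 564Igi mouse 24 overlapped the WT range, and the difference was 0.083 (SE 0.034, limma unadjusted p = 0.0247, adjusted p = 0.9997). Taken singly, Psmb9, Psme1 and Psme2 each had p = 0.00794 and Psmb8 and Psmb10 each p = 0.0317 in two-sided exact permutation tests over all assignments of the 10 mice. The first is the smallest p that 5 against 5 mice allow. It was reached by 45 of 9959 genes (0.452%), and its adjusted value over all genes was 1.

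The constitutive catalytic subunits overlapped between the groups. Psmb5 was at 0.76, 0.62, 0.74, 0.72 and 0.78 in the WT mice and at 0.76, 0.80, 0.77, 0.70 and 0.82 in the 564Igi mice, a difference of 0.047 (SE 0.039). Psmb6 was at 0.66, 0.64, 0.65, 0.70 and 0.69 in the WT mice and at 0.76, 0.68, 0.73, 0.63 and 0.71 in the 564Igi mice, a difference of 0.035 (SE 0.034). Psmb7 was at 0.24, 0.21, 0.28, 0.24 and 0.23 in the WT mice and at 0.27, 0.29, 0.26, 0.21 and 0.24 in the 564Igi mice, a difference of 0.013 (SE 0.018). Mice 12 and 24, which had the fewest UMIs per cell, were the lowest of their group for Psmb5, Psmb6 and Psmb7. Single mice moved these differences: Psmb5 was at 0.021 without WT mouse 12, Psmb6 at 0.022 without 564Igi mouse 13 and 0.052 without mouse 24, and Psmb7 at 0.0037 without 564Igi mouse 17 and 0.023 without mouse 24.

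**Figure D1:**
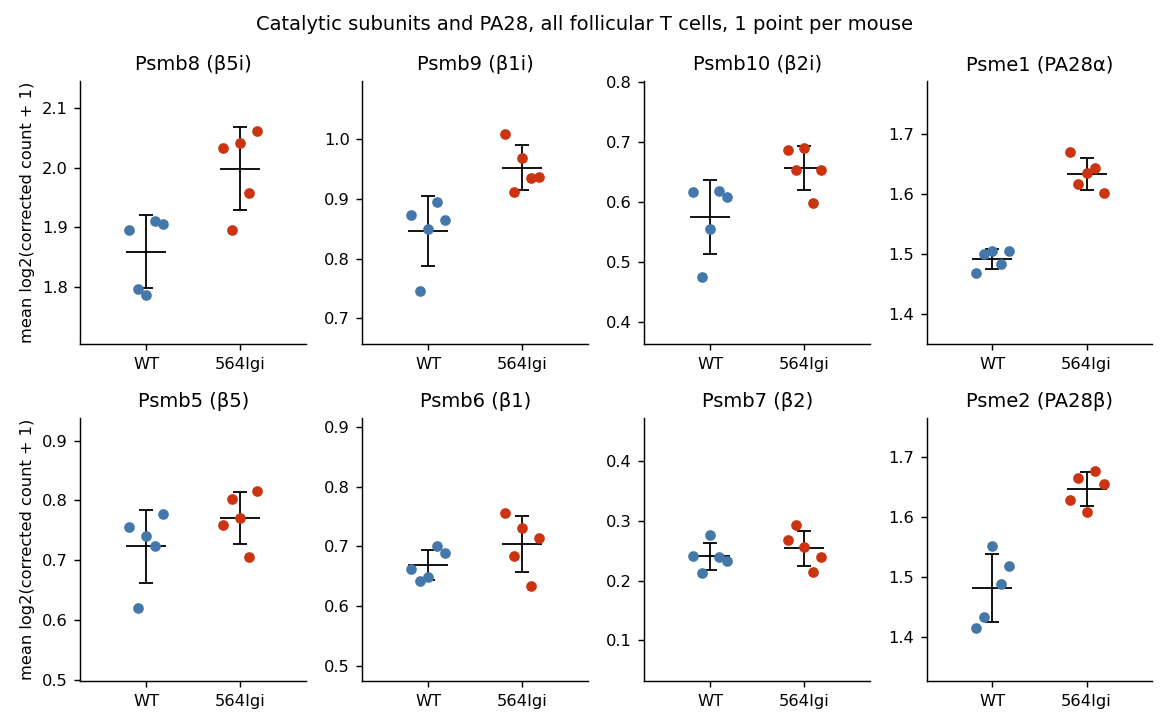
Mean log2(corrected count + 1) over all follicular T cells of each mouse (vertical axis, each panel spanning the same range) in 5 WT and 5 564Igi mice, for the 3 exchanged catalytic subunits, the 3 they replace and both PA28 chains, with 1 point per mouse and bars for the mean and SD. For Psmb9, Psme1 and Psme2 every 564Igi mouse lies above every WT mouse, and for Psmb5, Psmb6 and Psmb7 the groups overlap.

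By role, the condition difference had a median of 0.14 in the immunoproteasome genes, 0.032 in the α ring, 0.038 in the structural and 0.035 in the constitutive catalytic β subunits, 0.0046 in the ATPases, 0.0036 in the non-ATPases and -0.0045 in the assembly chaperones. The median of all genes tested was -0.0018. At an unadjusted p below 0.05 (limma), 3 of 43 genes were higher in 564Igi mice, Psmb9, Psmb10 and Psme2, where 1.48% of all genes were, and 0 of 43 were lower, where 1.72% of all genes were. The lowest 564Igi mouse was above the highest WT mouse for 3 of 43 genes (Psmb9, Psme1 and Psme2), against 0.261% of all genes. When 564Igi mouse 24 was left out, the count was 10 of 43, against 1.31% of all genes. The genes added were Psmb10 and the constitutive ring subunits Psma1, Psma2, Psma3, Psma5, Psma7 and Psmb1. With each cell scaled to 10000 counts and all mice, the count was 2, without Psmb9, against 0.171%. Of the other genes, the largest differences were those of the ring subunits Psma7 (0.059, SE 0.047), Psma2 (0.057, SE 0.046) and Psmb1 (0.053, SE 0.051), and the lowest those of Psmd5 (-0.0084, SE 0.015), Psmd12 (-0.0071, SE 0.020) and Psmd9 (-0.0045, SE 0.018), none with an unadjusted p below 0.05. Psme3 (PA28γ, the nuclear activator) differed by 0.0045 and Psme4 (PA200) by -0.0023.

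The authors corrected the counts within each condition separately. A change of scale between the conditions and a change shared by all genes cannot be told apart, and the differences of the immunoproteasome genes stand beside the median of all genes given above. Without mice 12 and 24 the 5 differences were 0.13 (Psmb8), 0.086 (Psmb9), 0.072 (Psmb10), 0.14 (Psme1) and 0.15 (Psme2).

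Within mice labelled female (2 WT, 3 564Igi), the differences were 0.20 for Psmb8, 0.16 for Psmb9, 0.13 for Psmb10, 0.15 for Psme1 and 0.21 for Psme2, and for all 5 genes every 564Igi mouse lay above both WT mice. Within mice labelled male (3 WT, 2 564Igi) they were 0.059, 0.053, 0.033, 0.13 and 0.15, with no overlap for Psmb9, Psme1 and Psme2. Psmb6 was higher in 564Igi females (0.081) and lower in 564Igi males (-0.021). Mice 12 and 24, with the fewest UMIs per cell, are a WT mouse labelled female and a 564Igi mouse labelled male. The part of depth in these values was not tested. Whether the condition difference itself differs between the sexes was not tested. Between mice 34 and 36 alone, the differences of the 5 genes were 0.16, 0.072, 0.046, 0.097 and 0.14, and among the other 8 mice 0.13, 0.11, 0.092, 0.15 and 0.17.

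**Figure D2:**
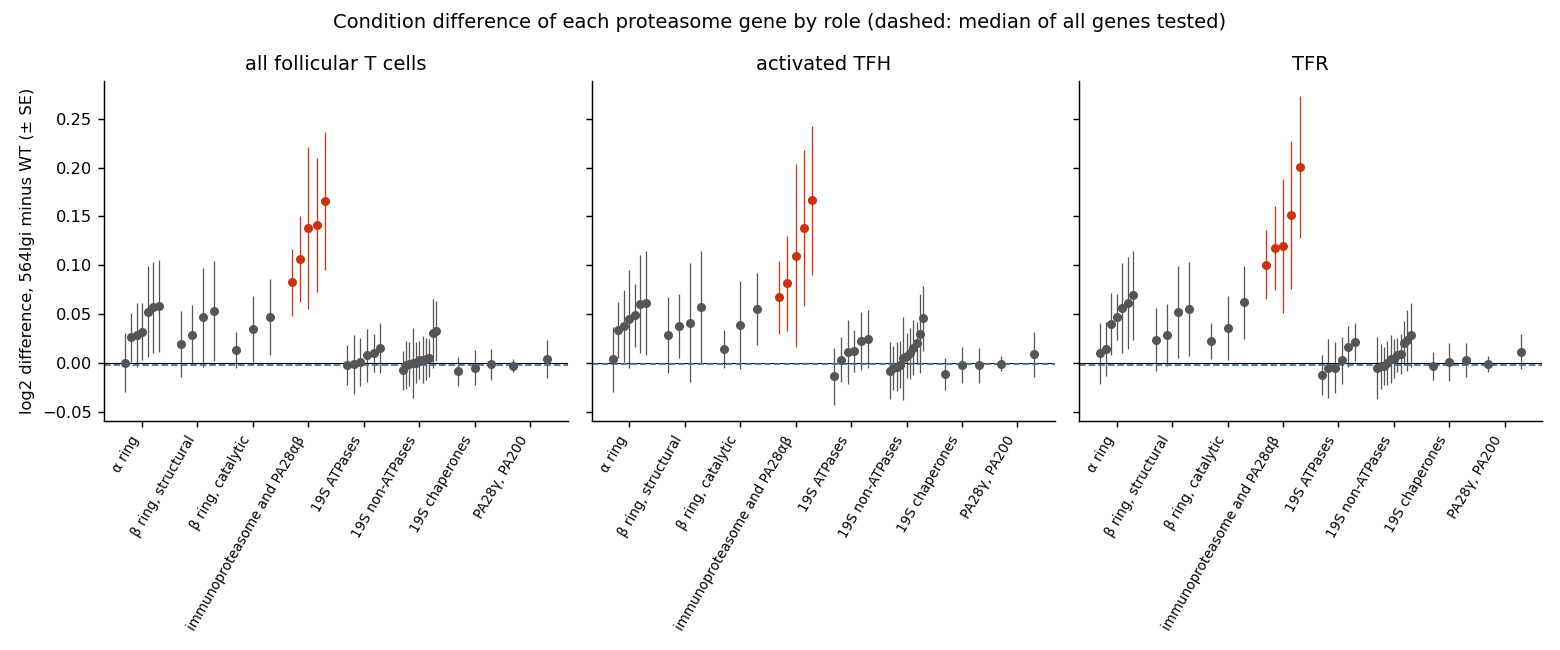
Log2 difference between conditions (564Igi minus WT, points, with limma's SE as bars) of each of 41 proteasome genes with a role, grouped by role on the horizontal axis, over all follicular T cells (5 against 5 mice), activated TFH cells and TFR cells; the dashed line is the median of all genes tested. The 5 immunoproteasome genes (red) lie between 0.083 and 0.17 over all cells, above each of the other genes, and no gene was called.

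In activated TFH cells (11953 cells), the largest cluster, the immunoproteasome genes again had higher means in 564Igi mice. The differences were 0.17 for Psme1 (SE 0.076), 0.14 for Psme2 (SE 0.080), 0.11 for Psmb8 (SE 0.093), 0.082 for Psmb9 (SE 0.048) and 0.068 for Psmb10 (SE 0.037), with a median of 0.11. Only Psme1 had an unadjusted p below 0.05 (0.0395, adjusted p = 0.9997, limma). Psme1 and Psme2 did not overlap between the groups, 2 of 43 genes against 0.264% of all genes, and 0.0101% of all genes were called. Without mouse 24 the count was 5, with the constitutive subunits Psma1, Psma3 and Psmb2 added, against 1.47% of all genes. With each cell scaled to 10000 counts and all mice, the count was 1, without Psme2, against 0.203%. The largest differences among the other genes were 0.062 (Psma7), 0.060 (Psma2) and 0.057 (Psmb1), and the lowest -0.013 (Psmc4), -0.011 (Psmd5) and -0.0078 (Psmd13).

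In TFR cells (11650 cells), the Foxp3+ regulators of the germinal center, 4 of the 5 immunoproteasome genes did not overlap between the groups, which made 4 of 43 genes against 0.38% of all genes, and 0.02% of all genes were called. Without mouse 24 the count was 9, with Psmb10 and the α ring genes Psma2, Psma3, Psma5 and Psma7 added, against 1.53% of all genes. With each cell scaled to 10000 counts and all mice, the count was 3, without Psmb8, against 0.25%. Psme2 was at 1.58 ± 0.068 in WT and 1.78 ± 0.067 in 564Igi mice (SD, n = 5 each), a difference of 0.20 (SE 0.072, limma unadjusted p = 0.0118, adjusted p = 0.9974). Psmb8 was at 1.84 ± 0.032 and 1.995 ± 0.068 (difference 0.15, SE 0.076), Psme1 at 1.61 ± 0.034 and 1.73 ± 0.037 (difference 0.12, SE 0.069) and Psmb9 at 0.83 ± 0.055 and 0.95 ± 0.055 (difference 0.12, SE 0.043, unadjusted p = 0.0128 by limma). Psmb10 overlapped, at 0.60 ± 0.067 and 0.70 ± 0.040, with a difference of 0.10 (SE 0.035, limma unadjusted p = 0.00969, adjusted p = 0.9585). The α ring had a median difference of 0.048, led by Psma3 (0.069), the constitutive catalytic subunits one of 0.036, led by Psmb5 (0.062), and the ATPases one of -0.00081, with Psmc6 lowest (-0.012).

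The difference between the condition effects in TFR and in activated TFH cells was tested on each mouse's TFR minus activated value. It was 0.062 for Psme2 (SE 0.051), 0.042 for Psmb8 (SE 0.044), 0.036 for Psmb9 (SE 0.029), 0.033 for Psmb10 (SE 0.025) and -0.047 for Psme1 (SE 0.048), where 564Igi minus WT is positive. Leaving out 1 mouse moved it between 0.033 (without WT mouse 36) and 0.10 (without WT mouse 12) for Psme2, and between -0.070 and -0.0085 for Psme1 (the same mice). None of the 43 genes had an unadjusted p below 0.05 in this test, 0 were called, and 0% of all 9682 genes were called (limma).

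In the smaller clusters the spread was wider. In Sostdc1 TFH cells (2803 cells), the 5 immunoproteasome genes had positive differences with a median of 0.11, no gene of 43 was free of overlap (0.334% of all genes were) and 0.0202% of all genes were called. Among the other genes Psma7 had the largest difference (0.13, SE 0.065) and Psmd6 (-0.049), Psmd12 (-0.045) and Psmc2 (-0.042) the lowest. In effector TFH cells (682 cells), Psme1 was at 1.44 ± 0.051 and 1.69 ± 0.053 (difference 0.25, SE 0.12) and was the only gene of 43 without overlap, against 0.197% of all genes, and 0.0104% of all genes were called. Psmb8 differed by 0.18, Psme2 by 0.20, Psmb10 by 0.021 and Psmb9 by 0.0069.

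Central memory TFH cells (725 cells) reached 20 cells in all 5 WT mice and in 3 564Igi mice. Psme2 was at 0.81, 0.86, 0.88, 0.88 and 0.99 in WT mice and at 1.11, 1.05 and 1.36 in 564Igi mice 13, 17 and 24, a difference of 0.29 (SE 0.098, limma unadjusted p = 0.00662, adjusted p = 0.523). Psme2, the structural subunit Psmb1 (0.23, SE 0.092) and Psmd8 (0.15, SE 0.066) did not overlap, 3 of 43 genes against 3.19% of all genes, and 0% of all genes were called. The lowest differences were those of Psmb6 (-0.17, SE 0.083), Psmd10 (-0.12, SE 0.047) and Psmb2 (-0.12, SE 0.065). Without mice 12 and 24 the difference of Psme2 was 0.19. The 2 564Igi mice under 20 cells, 21 (19 cells) and 34 (13 cells), were at 0.93, within the WT range, and at 1.21.

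Interferon stimulated TFH cells (379 cells, 4 mice of each group) showed no like pattern. Psmb8 was at 2.55, 2.42, 2.71 and 2.51 in WT mice 11, 14, 23 and 36 and at 2.41, 2.54, 2.61 and 2.65 in 564Igi mice 13, 17, 21 and 34, which overlap throughout (difference 0.0069, SE 0.15). Psme1 (-0.11, SE 0.15) and Psme2 (-0.11, SE 0.15) had lower means in 564Igi mice, and the median of the 5 genes was 0.0069. Psma2 and the chaperone Psmd10 (gankyrin) lay above all WT mice, 2 of 43 genes against 1.17% of all genes, and 0.0106% of all genes were called. Psmb2 (-0.13, SE 0.083) lay below all WT mice, 1 of 43 genes against 1.19%, and Psmc3 had the lowest difference (-0.14, SE 0.069). In the other cell groupings 0 of 43 genes lay below all WT mice, against 0.191% of all genes over all cells, 0.122% in activated TFH, 0.33% in TFR, 0.506% in Sostdc1, 1.58% in central memory and 0.685% in effector cells. With 28 to 68 cells per mouse, the SE of the 5 differences (0.11 to 0.15) was as large as the differences seen in the large clusters.

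Across the authors' clusters, interferon stimulated TFH cells had the highest immunoproteasome levels and central memory TFH cells the lowest, within the same mice. The clusters were built from these expression values, so this is a description without a test. In interferon stimulated cells, Psmb8 was at 2.55 ± 0.11 against 1.94 ± 0.083 in the activated TFH cells of the same 8 mice (SD), a mean difference of 0.61 ± 0.10. Psmb10 was higher by 0.54 ± 0.086, Psme1 by 0.49 ± 0.15, Psmb9 by 0.42 ± 0.16 and Psme2 by 0.41 ± 0.12, each in 8 of 8 mice. Among the 43 genes, 8 were higher in every mouse, against 3.4% of all genes, and 0 were lower in every mouse, against 3.28%. Beside the 5 these were the α ring genes Psma2 (0.16 ± 0.062) and Psma5 (0.14 ± 0.086) and Psme2b, which may carry reads of Psme2. Psma4 was higher in 7 of 8 mice (0.13 ± 0.081), and Psma7 (-0.084), Psmb6 (-0.068) and Psmd4 (-0.058) had the lowest differences.

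In central memory TFH cells, Psme2 was lower than in activated TFH cells in 8 of 8 mice, at 0.99 ± 0.18 against 1.47 ± 0.11 (difference -0.48 ± 0.13). Psmb9 (-0.23 ± 0.13) and Psme1 (-0.18 ± 0.11) were also lower in 8 of 8 mice and Psmb8 (-0.23 ± 0.12) in 7 of 8, and Psmb10 differed by -0.045 ± 0.099. In all, 8 of 43 genes were lower in every mouse (Psma2, Psma3, Psma4, Psmb9, Psmc2, Psmc5, Psme1 and Psme2), against 9.24% of all genes, and 0 were higher, against 9.04%. Psma3 had a difference of -0.16 ± 0.10 and Psmc2 of -0.10 ± 0.069. The largest positive values, Psmc6 (0.064), Psmd8 (0.036) and Psmd14 (0.036), did not have the same sign in every mouse. Of the 6 follicular T cell markers, 5 were also lower in central memory cells in every mouse (median -0.57), and their part in these differences was not tested.

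TFR cells had higher levels of both PA28 chains than activated TFH cells, while Psmb8 and Psmb9 had no common direction. Psme1 was higher in TFR cells by 0.20 ± 0.080 and Psme2 by 0.19 ± 0.088, in 10 of 10 mice, and Psmb10 by 0.075 ± 0.045 in 10 of 10. Psmb8 (-0.0020 ± 0.053) and Psmb9 (-0.0071 ± 0.044) were higher in 6 and 5 of 10 mice. Of the 43 genes, 11 were higher in every mouse, against 12.8% of all genes, and 0 lower, against 7.33%. The other 8 were Psma3, Psma5, Psma7, Psmb6, Psmb7, Psmc3, Psmd8 and Psme2b, with Psma7 at 0.083 ± 0.043, Psmd8 at 0.063 ± 0.035 and Psma3 at 0.059 ± 0.017. Psmb1 (-0.032) and Psma1 (-0.024) had the lowest differences.

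Effector TFH cells, marked by Ccl5 and Gzmk, had higher Psmb10 (0.17 ± 0.16, 9 of 10 mice) and Psmb8 (0.13 ± 0.11, 9 of 10) than activated TFH cells. Psmb3 was higher by 0.15 ± 0.13 (8 of 10), whereas Psma7 (-0.12 ± 0.060), Psma4 (-0.11 ± 0.065), Psma6 (-0.10 ± 0.063) and Psmc5 (-0.087 ± 0.063) were lower in 10 of 10 mice, 4 of 43 genes against 4.91% of all genes. No gene was higher in every mouse, against 2.29%. Sostdc1 TFH cells had 0 of 43 genes higher (5.24% of all genes) and 0 lower (2.76%) in every mouse, and the immunoproteasome genes differed by -0.020 (Psmb10) to 0.020 (Psme2). Median UMIs per cell ran from 3461 in TFR to 4027 in central memory cells, and their part in these differences was not tested.

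**Figure D3:**
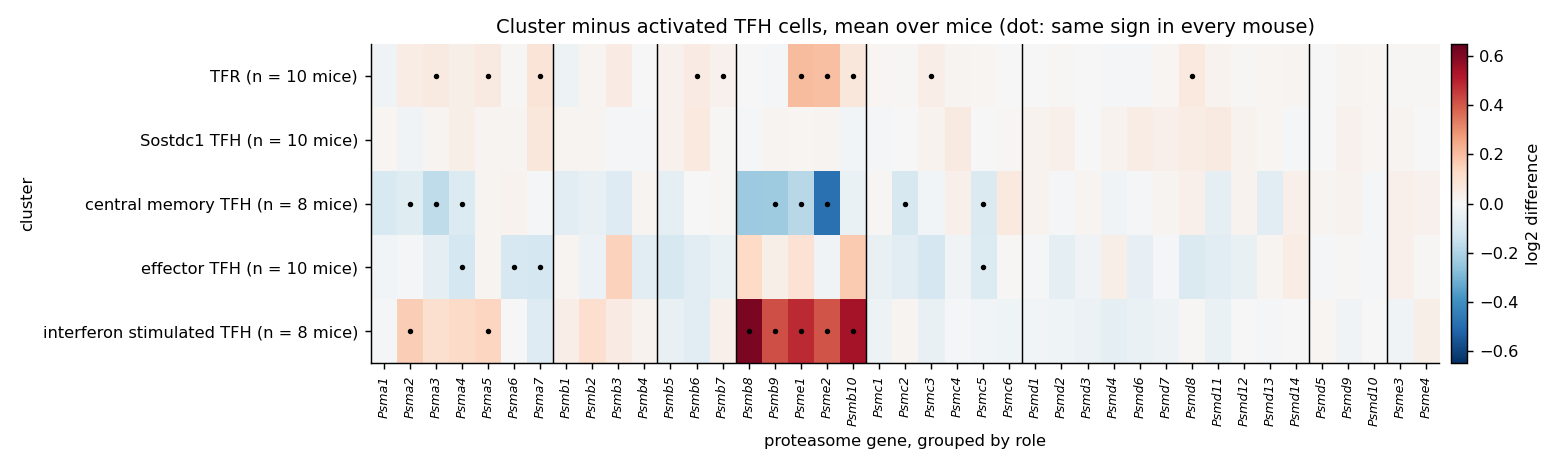
Difference in log2 level from activated TFH cells (color, mean over mice) for 41 proteasome genes with a role (columns, grouped by role) in the 5 other clusters (rows, with the number of mice that have at least 20 cells); a dot marks genes with the same sign in every mouse. The block of 5 immunoproteasome genes is high in interferon stimulated cells (0.41 to 0.61) and at or below 0 in central memory cells (-0.48 to -0.045).

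The balance of the immunoproteasome against the constitutive proteasome was summarized for each mouse as the mean level of the 5 genes minus the mean level of the 31 constitutive subunits. Over all cells it was 0.73 ± 0.016 in WT (range 0.71 to 0.75) and 0.83 ± 0.044 in 564Igi mice (0.77 to 0.89), with no overlap between the groups. The immunoproteasome mean was 1.25 ± 0.037 in WT and 1.38 ± 0.022 in 564Igi mice, and the constitutive mean, also higher in 564Igi mice, was 0.53 ± 0.025 and 0.54 ± 0.044. In 4 of 5 564Igi mice the constitutive mean also lay above all WT mice. It was lowest in mouse 24 (0.469) and mouse 12 (0.481), the mice with the fewest UMIs per cell. Without them the gap was 0.088, against 0.11 with all mice.

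In TFR cells the balance was 0.75, 0.76, 0.76, 0.76 and 0.77 in WT mice 11, 12, 14, 23 and 36 and 0.89, 0.85, 0.87, 0.90 and 0.87 in 564Igi mice 13, 17, 21, 24 and 34. The WT mice lay within 0.017 of each other, and the gap between the groups was 0.12. In activated TFH cells it was 0.70 ± 0.036 and 0.79 ± 0.058, with 4 of 5 564Igi mice above all WT mice, in Sostdc1 cells 0.68 ± 0.039 and 0.77 ± 0.079, and in effector cells 0.81 ± 0.075 and 0.92 ± 0.093. Central memory cells had the lowest balance, 0.45 ± 0.022 in WT and 0.64 ± 0.091 in 3 564Igi mice, with no overlap. The balance was highest in interferon stimulated cells, at 1.23 ± 0.095 and 1.22 ± 0.069. Relative to activated TFH cells of the same mouse it was higher by 0.49 ± 0.073 in interferon stimulated cells (8 of 8 mice), by 0.12 ± 0.096 in effector cells (9 of 10) and by 0.072 ± 0.039 in TFR cells (10 of 10), at -0.018 ± 0.029 in Sostdc1 cells (7 of 10 lower) and at -0.21 ± 0.057 in central memory cells (0 of 8 higher). No p is given for this value, since its genes were chosen with results of these data known.

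**Figure D4:**
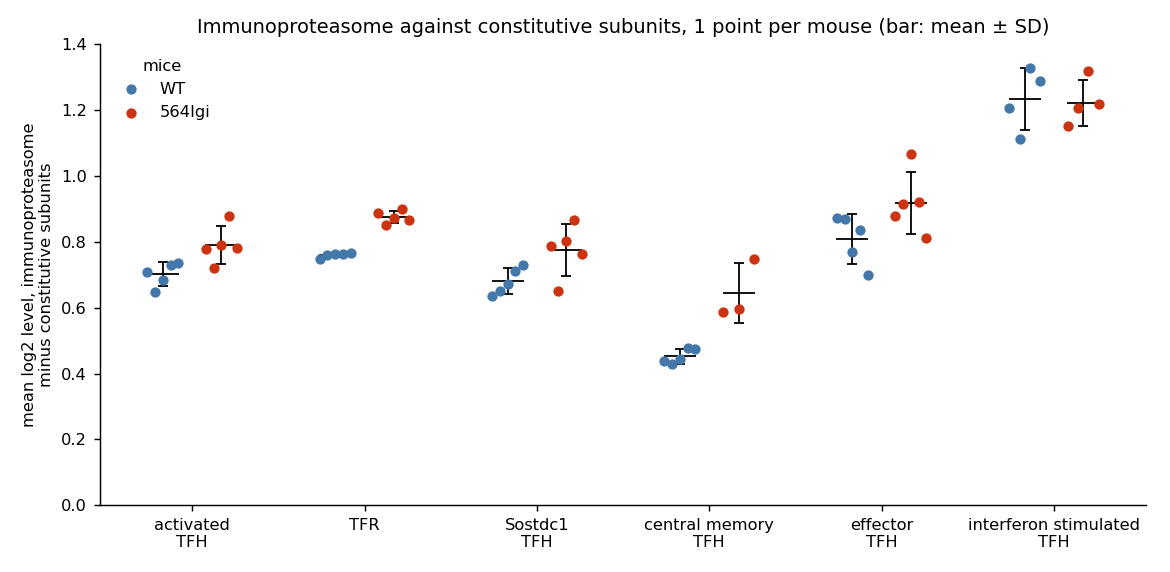
Mean log2 level of 5 immunoproteasome genes minus that of 31 constitutive subunits (vertical axis) in each cluster, with 1 point per mouse (WT blue, 564Igi red) and bars for the mean and SD. The groups do not overlap in TFR cells (0.75 to 0.77 against 0.85 to 0.90). Nor do they in central memory cells (0.43 to 0.48 in 5 WT against 0.59 to 0.75 in 3 564Igi mice). They overlap in interferon stimulated cells, whose values of 1.11 to 1.33 are the highest of the 6 clusters.

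Each exchanged subunit was also set against the one it replaces. Over all cells, Psmb9 minus Psmb6 was 0.18 ± 0.043 in WT and 0.25 ± 0.031 in 564Igi mice, with no overlap. Psmb8 minus Psmb5 was 1.14 ± 0.055 and 1.23 ± 0.076, and Psmb10 minus Psmb7 was 0.33 ± 0.058 and 0.40 ± 0.029, each with 4 of 5 564Igi mice above all WT mice. In central memory cells Psmb9 minus Psmb6 was -0.14 ± 0.085 in 5 WT mice and 0.23 ± 0.14 in 3 564Igi mice, with no overlap. These were mice 13, 17 and 24, with 21, 83 and 29 cells. With so few mice, 3.19% of all single genes also had every 564Igi mouse above every WT mouse in this cluster. In interferon stimulated cells the 3 pairs were 0.66 (Psmb8 and Psmb5), 0.49 (Psmb9 and Psmb6) and 0.51 (Psmb10 and Psmb7) above their values in activated TFH cells, in 8 of 8 mice each. In TFR cells they were -0.028, -0.061 and 0.046 relative to activated TFH cells, with Psmb9 minus Psmb6 lower in 9 of 10 mice.

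Clonal expansion gave a comparison within mice, independent of condition. A clonotype was a pair of CDR3α and CDR3β amino acid sequences, and cells of clonotypes with at least 5 cells in a mouse were set against those of clonotypes with 1 cell (4877 and 2416 activated TFH cells, 3953 and 2972 TFR cells), with the mouse as the block. No proteasome gene was called in either cluster, where 0.224% (activated TFH) and 0.1% (TFR) of all genes were. In TFR cells of expanded clonotypes, Psmb8 was at 1.94 ± 0.10 against 1.88 ± 0.094 (difference 0.065, SE 0.030, higher in 9 of 10 mice, limma unadjusted p = 0.0397, adjusted p = 0.237) and Psmb9 at 0.91 ± 0.10 against 0.86 ± 0.091 (difference 0.054, SE 0.022, 7 of 10 mice, limma unadjusted p = 0.0225, adjusted p = 0.184). Psmd3 was also higher at an unadjusted p below 0.05 (0.035, SE 0.013), 3 of 43 genes against 3.26% of all genes. Psmc4, Psmd4 and Psme3 were lower at that limit (-0.030, -0.034 and -0.024), 3 of 43 against 15.9% of all genes.

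In activated TFH cells, Psmd8, a non-ATPase of the 19S lid, was at 0.55 ± 0.081 in expanded and 0.60 ± 0.066 in single-cell clonotypes (difference -0.056, SE 0.016, lower in 9 of 10 mice, limma adjusted p = 0.0261). Psmd8 alone of the 43 genes had an adjusted p below 0.05 there (1 of 43), against 8.71% of all genes. With the chaperone Psmd9 (-0.030, SE 0.011) it made 2 of 43 genes lower at an unadjusted p below 0.05, against 19.1% of all genes, and 0 were higher, against 4.45%. The 5 immunoproteasome genes had higher means in expanded clonotypes in both clusters, with differences of 0.0078 (Psmb9) to 0.057 (Psme1) in activated TFH cells and 0.0093 (Psmb10) to 0.065 (Psmb8) in TFR cells. The medians of all genes were -0.0059 and -0.0053. Among genes that use the peptides of the proteasome, the class I heavy chains H2-K1 (0.20, SE 0.019, adjusted p = 4.13e-08) and H2-D1 (0.20, SE 0.022, adjusted p = 1.99e-07) were higher in expanded TFR clonotypes and B2m had a difference of 0.13 (SE 0.028, adjusted p = 0.00516, limma). H2-D1 was called, and H2-K1 and B2m passed the limit on p and not that on size. In TFR cells 5 of 10 class I genes were higher and 1 (Nlrc5, -0.021) lower at an unadjusted p below 0.05, and in activated TFH cells 2 were higher and 0 lower. Of 17 interferon-stimulated genes tested in activated TFH cells, 10 were lower and 0 higher at that limit, and in TFR cells 2 were lower and 1 higher. In activated TFH cells 5 of 6 follicular T cell markers were higher (2 called, Cd3e at 0.28 and Pdcd1 at 0.36), and in TFR cells 3 were (1 called, Pdcd1 at 0.25), and their part in the values of the proteasome genes was not tested.

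Genes that work with the proteasome were read from lists outside the naming rule. Of 11 assembly, inhibitor and associated genes, such as Pomp, Psmg1 and Psmf1, 7 had higher means in 564Igi mice over all cells and 0 had an unadjusted p below 0.05 in either direction. The 5 regulators of proteasome genes (Nfe2l1 among them, which drives the constitutive subunits when proteasomes are inhibited) gave 3 and 0, the 5 ubiquitin genes 5 and 0, and the 8 heat shock genes tested 7 and 0. Of 10 genes of class I antigen processing, 8 had higher means and 1 passed an unadjusted p below 0.05, the chaperone Calr (0.10, SE 0.040, limma unadjusted p = 0.0155). In TFR cells 9 of 10 had higher means and 4 passed it, Calr (0.14), Tap1, which carries peptides into the endoplasmic reticulum (0.11), B2m (0.15) and H2-K1 (0.099), and 0 were called. Of 18 interferon-stimulated genes, 14 had higher means with a median difference of 0.0080, Mx1 (0.0072) and Iigp1 (0.047) passed, and 0 were called. In TFR cells 15 of 17 tested had higher means with a median difference of 0.020. There 4 passed in the higher and 0 in the lower direction, and 0 were called. Of 10 interferon regulators, 3 had higher means with a median difference of -0.0067, 1 passed in the higher and 0 in the lower direction, and 0 were called. In TFR cells 4 of these 10 had higher means, and 1 passed in the higher and 0 in the lower direction. Among all genes, 1.48% passed in the higher direction over all cells and 1.59% in TFR cells.

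Across clusters, 18 of 18 interferon-stimulated genes were higher in interferon stimulated than in activated TFH cells in every mouse, with a median of 0.90, as were 6 of 10 class I genes, among them Tapbp (0.73 ± 0.097), Tap1 (0.58 ± 0.22) and B2m (0.41 ± 0.061). So were 5 of 10 interferon regulators, against 3.4% of all genes. The authors built this cluster from these expression values and named it for interferon stimulated genes. The high count of such genes follows from that and is a description without a test. In TFR cells 7 of 10 class I genes, 8 of 10 interferon regulators and 3 of 18 interferon-stimulated genes were higher in every mouse, against 12.8% of all genes. In central memory cells 5 of 10 class I genes were lower in every mouse, among them H2-D1 (-0.51 ± 0.19), H2-K1 (-0.43 ± 0.26) and Tapbp (-0.26 ± 0.12). So were 3 of 18 interferon-stimulated genes and 0 of 10 interferon regulators, against 9.24% of all genes. Of these regulators, 9 had higher means in central memory cells and 1 was higher in every mouse, against 9.04% of all genes.

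The genes whose cluster pattern was most like the mean of the 5 immunoproteasome genes were found by Pearson's r over 56 mouse-by-cluster means, each gene centered within its mouse. Among the first 10 were Tapbp (r = 0.926), Ube2l6 (0.910), Gbp2 (0.903), Shisa5 (0.890), Plaat3 (0.887), H2-T22 (0.885), Phf11b (0.882), Chmp4b (0.881) and Samhd1 (0.876). The points share libraries and mice, and the interferon stimulated cluster weighs heavily. The mean of the interferon-stimulated genes had r = 0.870 over the 56 points and 0.548 over the 48 points without that cluster. The constitutive subunits had r = 0.251 (0.233 without the cluster), and among them Psma2 (0.780) and Psmb2 (0.626) were highest and Psmd7 (-0.352) and Psmc6 (-0.346) lowest.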

How the data were processed

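Libraries were made by the authors with 10x 5′ chemistry, 1 gene expression and 1 receptor library per mouse, and processed with Cell Ranger 4.0.0 (GRCm38) and Seurat 3.1.4. Cells were filtered by the authors on depth, mitochondrial and ribosomal share and cycling, and receptor and rRNA genes were removed. Each deposited expression value is a natural log (of 1 plus a UMI count that sctransform had corrected, run by the authors for each condition apart). The deposited cell table holds raw UMI counts, the percent of mitochondrial and ribosomal UMIs, the authors' module scores and their cluster names. No doublet caller was run here, and 3503 of 21405 cells with paired receptors listed more than 1 α or β sequence.

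Values were converted to log2(corrected count + 1) and averaged over each mouse's cells, since cells of a mouse are not replicates. A mouse entered a cluster with at least 20 cells, and a gene was tested if 1% or more of the cells held it in a number of mice equal to the smaller group. All genes were fitted together with limma 3.58.1 (R 4.3.3, trend option), adjusted by Benjamini-Hochberg over all genes tested, and called at adjusted p below 0.01 and absolute log2 difference above 0.2. The study set these limits for single cells. The fits were tested on simulated data. Single genes were also compared by exact permutation (Python 3.11.15, scipy 1.17.1). Gene roles and lists, the 5 immunoproteasome genes and the clusters compared were chosen with earlier results of these data known. Named were the 5 immunoproteasome and 3 constitutive catalytic genes, up to 3 others with the largest difference in each direction per comparison, genes of the lists, and the genes of most like pattern, of which 1 is not reported here. Alternatives changed the scale, pseudocount, filter, variance model, covariates, cell minimum and mice.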

Additional observations from a re-analysis of the deposited data

How the results depend on the processing

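None of the 43 genes was called in any of 182 alternative fits of the 10 comparisons, which changed the variance model, filter, scale, pseudocount or covariates or left out mice, and leaving out each mouse in turn gave 0 to 0 in each. Of 453 differences of named genes under alternatives, 1 reversed: without mice 12 and 24 the TFR minus activated difference of Psme1 was 0.019 against -0.047. The means of the 5 immunoproteasome genes stayed higher in 564Igi mice in all 90 alternatives each for all cells, activated TFH and TFR cells. The clone size comparisons pair the arms within a mouse, and with no replicate block 0 genes were called in either cluster. No paired analysis was possible between conditions because mouse numbers are not shared.

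The size of the balance (immunoproteasome minus constitutive level) depended on the scale. With each cell scaled to 10000 counts, and with log2 of the mean count plus 0.1, the gap between conditions was 0.142 and 0.148 over all cells (0.107 as reported), 0.150 and 0.156 in TFR (0.116) and 0.282 and 0.341 in central memory cells (0.191), where it was 0.132 without mice 12 and 24. Relative to activated TFH cells the balance became -0.317 and -0.324 in central memory (-0.211) and 0.666 and 0.745 in interferon stimulated cells (0.487) and, with the second, 0.241 in effector cells (0.118). Leaving out each mouse gave gaps of 0.092 to 0.123 over all cells, 0.066 to 0.106 in activated, 0.109 to 0.122 in TFR, 0.071 to 0.125 in Sostdc1, 0.138 to 0.220 in central memory, 0.073 to 0.136 in effector and -0.052 to 0.020 in interferon stimulated cells. Genes with no overlap between conditions numbered 3 to 10 over all cells, 2 to 5 in activated TFH and 4 to 9 in TFR cells, leaving out 1 mouse at a time, the higher values without 564Igi mouse 24, and 10, 5 and 9 without mice 12 and 24, against 1.4%, 1.53% and 1.65% of all genes. With fewer mice such counts can only rise. On the first and second other scale the counts were 2 and 4 over all cells (0.171% and 0.331% of all genes), 1 and 1 in activated TFH (0.203% and 0.294%) and 3 and 6 in TFR cells (0.25% and 0.49%). At 50 cells per mouse and cluster, 9 genes were lower in effector cells in all 6 mice, against 13.2% of all genes, and 15 higher in interferon stimulated cells in all 3, against 12.5%. Central memory and interferon stimulated cells, with as few as 13 and 14 cells in a mouse, limit what can be read there.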
